A study of Homo sapiens with 60 samples.

Results

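Endoplasmic reticulum folding genes were followed through a dose series of 8 herbal extracts in SW1783, a human astrocytoma cell line held by the ATCC and grown in Leibovitz's L-15 medium. The set holds 34 genes, picked by gene symbol from the 60675 Ensembl genes of the deposited count table. It was split by role into 12 chaperones, 9 disulfide enzymes, 9 genes of degradation and translocation, and 4 sensors. The sensor group holds ERN1, EIF2AK3 and ATF6, and with them XBP1, a transcription factor whose messenger RNA ERN1 splices. All 34 were found, each under 1 gene identifier, and all 34 were among the 17851 genes with enough counts to be tested. For every extract the high and the medium dose were set against the low dose of the same extract after 24 h.

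The water extracts were those of the decoctions Yijin-tang (3 libraries a dose) and Soshiho-tang (2 libraries a dose, numbered 2 and 3), each at 20, 100 and 500 µg/mL. The ethanol extracts came from single herbal drugs. Those of Zizyphi Semen, of Longan Arillus and of Liriopis seu Ophiopogonis Tuber had 3 libraries at each of 20, 100 and 500 µg/mL. Schisandrae Fructus had 3 libraries at each of 12.4, 62 and 310 µg/mL. There was 1 library a dose for Aucklandiae Radix, tested at 6.4, 32 and 160 µg/mL, and for Polygalae Radix, tested at 1.2, 6 and 30 µg/mL. Where the IC20 of an extract lay under the usual top dose, the design took the IC20 as the high dose, so equal dose names stand for different concentrations. The reference outside the dose series was 3 libraries of cells given the vehicle dimethyl sulfoxide, at 0.1% by the sample labels (the series' design text gives another concentration). SW1783 is 1 tumour line, and nothing in the sources says whether libraries of a group came from separate cultures, so every p-value measures only the spread between these libraries.

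The endoplasmic reticulum is where secreted and membrane proteins fold. Its chaperones, led by HSPA5 (BiP), hold unfolded chains, its protein disulfide isomerases make and rearrange disulfide bonds, and chains that fail to fold are taken back to the cytosol and degraded. Unfolded protein activates the sensors ERN1 (IRE1), EIF2AK3 (PERK) and ATF6. ERN1 splices the XBP1 messenger RNA, ATF6 is cut into a transcription factor, and EIF2AK3 slows translation and favours that of ATF4. The promoters of many folding genes carry a shared endoplasmic reticulum stress element, which ATF6 and XBP1 are known to act through.

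The elements themselves are shown because they are what a group of these genes has in common outside the count table. Promoter sequence came from RefSeq on GRCh38.p14, 250 bases before to 50 bases after each annotated start, and 31 of the 34 genes had an entry, with 38 promoters between them. The element bound by NF-Y and ATF6, CCAAT followed after 9 bases of any kind by CCACG, was searched on both strands and was found in 8 of the 31 genes (25.8%), which were HSPA5, HSP90B1, CRELD2, CALR, CANX, PDIA6, ERO1B and XBP1. Of all 35116 promoters of the same length, 27 (0.0769%) held it. A second element, ATTGG followed after 1 base by CCACG, was searched in the same way and was found in HYOU1, SDF2L1 and HERPUD1, which is 9.68% of the genes, against 0.0541% of all promoters. TGACGTGG, an element named after the unfolded protein response, was found in HYOU1, where it overlaps the second element, and in TXNDC5 and TXNDC11, against 0.729% of all promoters. The members were counted by gene. Counted so over all 27305 gene symbols, the shares of the 3 elements were 0.0916%, 0.0696% and 0.927%, in the order given. The set was chosen as known folding genes, many of which carry such an element, so these shares only describe the set. The letters are a match in a sequence and no measurement of binding. The promoter of HSPA5 before its start is given whole, with its element in capitals, 66 bases before the start.
HSPA5 (chr9:125241344-125241593, minus strand): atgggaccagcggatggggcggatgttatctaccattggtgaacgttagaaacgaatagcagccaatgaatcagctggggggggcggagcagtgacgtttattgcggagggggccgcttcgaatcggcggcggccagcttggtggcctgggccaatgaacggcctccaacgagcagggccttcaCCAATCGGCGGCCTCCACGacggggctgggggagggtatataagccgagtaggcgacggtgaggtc

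Short windows around the same element in 6 other genes (2 windows in HSP90B1), and around the second element in HYOU1, SDF2L1 and HERPUD1, follow with the element in capitals. CANX, which also holds the first element but passed in no high-dose comparison, is not among the windows. Each window is read on the strand that holds the element as written, so that the letters can be compared between genes. These genes did not all move in the same extract: PDIA6, for one, fell in Longan and did not pass in Schisandrae.
HSP90B1 (chr12:103930211-103930239, plus strand): cctgaCCAATCGGAAGGAGCCACGcttcg
HSP90B1 (chr12:103930316-103930344, minus strand): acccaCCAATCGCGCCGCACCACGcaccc
CALR (chr19:12938379-12938407, minus strand): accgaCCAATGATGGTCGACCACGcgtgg
CRELD2 (chr22:49918549-49918577, minus strand): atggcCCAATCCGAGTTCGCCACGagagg
PDIA6 (chr2:10812848-10812876, minus strand): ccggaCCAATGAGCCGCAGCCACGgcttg
ERO1B (chr1:236282178-236282206, plus strand): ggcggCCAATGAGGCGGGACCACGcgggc
XBP1 (chr22:28800598-28800626, minus strand): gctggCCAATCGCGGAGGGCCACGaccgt
HYOU1 (chr11:119057371-119057399, plus strand): cggcctgggATTGGACCACGtcacggggc
HYOU1 (chr11:119057265-119057293, plus strand): cgcgtactcATTGGACCACGtcccaggcc
SDF2L1 (chr22:21642105-21642133, minus strand): agggttttgATTGGTCCACGcttccgagg
HERPUD1 (chr16:56932016-56932044, plus strand): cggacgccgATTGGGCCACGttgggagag

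The 60 libraries held 18.73 to 35.52 M counts (median 25.79 M). Library names begin with a code that sets the vehicle libraries apart from all treated ones, and Yijin-tang and Soshiho-tang, Liriopis and Schisandrae, Longan and Zizyphi, and Polygalae and Aucklandiae share a set, so each extract was compared inside its own set. Schisandrae high-dose libraries held 29.66 to 32.57 M counts, against 20.71 to 26.07 M at its low dose. Of the markers of astrocytes and glial tumours, VIM, NES, SOX9 and SLC1A3 were expressed. GFAP, S100B, AQP4 and ALDH1L1 did not pass the filter on low counts, with at most 0.313 CPM in any treated library. Some markers of other cell types passed it too, such as SYT1, SNAP25, PTPRC, MBP, KDR and KRT18. KRT18 was at 107 to 115 CPM in the vehicle libraries, against 75.6 to 89.5 CPM for SOX9. Others, such as STMN2, AIF1, MOG, CDH5 and EPCAM, did not pass. These markers do not settle the cell type. The Polygalae high-dose library stood apart, with 20.3% of its counts on mitochondrially encoded genes, against 10.1% to 16.8% in the other 59 libraries. Of the 34 genes, 21 overlap a gene on the opposite strand and 11 a gene on the same strand. In bulk RNA, fewer cells of a kind and less RNA per cell cannot be told apart.

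Levels below are CPM, the count of a gene relative to the library total, after scaling by the trimmed mean of M-values, which compare libraries for 1 gene and are not divided by gene length, so they do not rank genes. Changes are log2 fold changes with their standard error from edgeR's quasi-likelihood test, fitted over the 54 libraries of the 19 replicated groups. A gene passed at a Benjamini-Hochberg adjusted p under 0.05 over all 17851 genes. The groups of 3 libraries and of 2 libraries share 1 estimate of the spread.

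At the high dose most of the folding genes rose in Schisandrae, some rose in Soshiho-tang and some fell in Longan, while 21 of 34 did not pass in Soshiho-tang and 25 of 34 did not pass in Longan. In Schisandrae, 24 of 34 genes rose and 2 fell, beside 22.3% and 23.6% of all genes tested, and the median change of the 34 was 0.21 log2, against -0.002 over all genes. In Soshiho-tang, 12 rose and 1 fell, beside 9.91% and 8.67% of all genes, with a median of 0.02. In Longan, 9 fell and 0 rose, beside 0.594% and 0.342% of all genes, with a median of -0.09. By role, 9 of 12 chaperones, 7 of 9 disulfide enzymes, 5 of 9 degradation genes and 3 of 4 sensors rose in Schisandrae. In Soshiho-tang 4 of 4 sensors, 4 of 9 degradation genes and 1 of 9 disulfide enzymes rose, while 3 of 12 chaperones rose and 1 fell. Whether the roles differed between extracts was not tested. The falls in Longan were 5 chaperones, 3 disulfide enzymes and 1 degradation gene. The Soshiho-tang count was 8 and not 13 without low-dose replicate 2 or without high-dose replicate 3. The Longan count was 5 when genes of low counts were kept and 1 when its high and low dose were fitted alone.

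The other 3 replicated extracts moved few of these genes. Zizyphi had 3 higher and 1 lower, beside 2.02% and 3.76% of all genes, and Yijin-tang had 3 higher and 0 lower, beside 3.61% and 3.39%. In Yijin-tang 1 gene, ERN1, passed without low-dose replicate 2. The Zizyphi count was 2 when genes of low counts were kept and 0 when its 2 doses were fitted alone. Liriopis had 0 in either direction in edgeR, as did all genes (0.0% higher and 0.0% lower), with 3 of the 34 at an unadjusted p under 0.05 and 1, HERPUD1, called by DESeq2. No gene of the 34 that passed in any of these comparisons had overlapping high-dose and low-dose libraries. How many of all called genes separate in the same way was not counted, so this adds nothing to the calls.

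**Figure D1:**
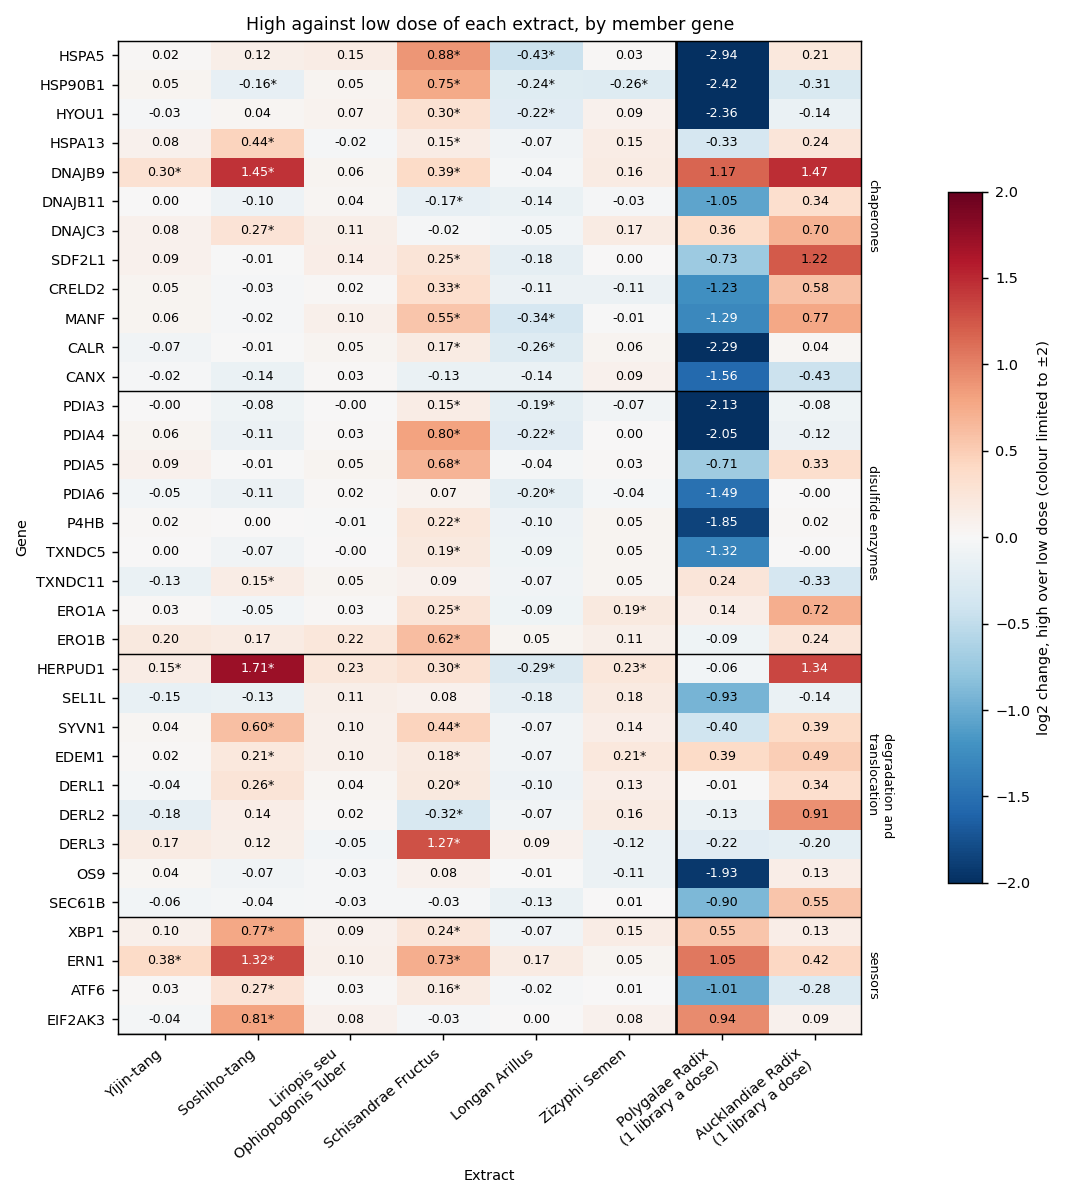
Log2 difference of the high dose from the low dose for the 34 genes (rows, grouped by role) in the 8 extracts (columns); colour gives the log2 difference and an asterisk marks an edgeR adjusted p under 0.05. Schisandrae is raised in most rows, Soshiho-tang in HERPUD1, DNAJB9 and the sensor rows, Longan is lowered in chaperone rows, and Polygalae and Aucklandiae, with 1 library a dose, carry no test.

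HSPA5, the central Hsp70 chaperone of the compartment (ENSG00000044574, chr9:125234853-125241330 on GRCh38, minus strand), had 5265, 5448 and 5691 CPM at the high dose, against 3069.6, 2932 and 2910.4 CPM at the low dose of Schisandrae. Every high-dose library lay far above every low-dose one, a 1.83-fold rise (log2 change 0.88 ± 0.04, edgeR adjusted p = 5.45e-22). In Longan it had 2227, 2231 and 2357 CPM at the high dose, against 3075, 3069.8 and 2989 CPM at the low dose. Here the libraries separated the other way, and the level fell by 25.6% (log2 change -0.43 ± 0.04, edgeR adjusted p = 7.03e-10). Soshiho-tang, which moved the sensors, gave 3238 and 3343 CPM at the high dose, against 3123 and 2947 CPM at the low dose, a difference that did not pass (log2 change 0.12 ± 0.05, edgeR adjusted p = 0.0884). Liriopis gave 3286, 3331 and 3133 CPM at the high dose, against 2979, 2909 and 2918 CPM at the low dose (log2 change 0.15 ± 0.04, edgeR adjusted p = 1.0). Those libraries do not overlap, but the difference did not pass over all genes. Yijin-tang gave 3120.1, 3141 and 3338 CPM at the high dose, against 3180.1, 3104 and 3172 CPM at the low dose (log2 change 0.02 ± 0.04, edgeR adjusted p = 0.868). Zizyphi gave 3387, 3262 and 3379 CPM at the high dose, against 3259.9, 3369.5 and 3128 CPM at the low dose (log2 change 0.03 ± 0.04, edgeR adjusted p = 0.717). In both of these the doses overlap.

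HSP90B1 (GRP94; ENSG00000166598, chr12:103930107-103953645, plus strand), the Hsp90 of the compartment, which finishes the folding of integrins and Toll-like receptors among others, had 2334, 2246 and 2385 CPM at the high dose, against 1415, 1365 and 1348 CPM at the low dose of Schisandrae (log2 change 0.75 ± 0.04, edgeR adjusted p = 5.38e-20). It passed in 4 of the 6 extracts, upward here and downward in the others. In Longan it had 1198, 1179 and 1278 CPM at the high dose, against 1455, 1435 and 1419 CPM at the low dose (log2 change -0.24 ± 0.04, edgeR adjusted p = 0.000187). In Zizyphi it had 1307, 1178 and 1308 CPM at the high dose, against 1562, 1493 and 1469.5 CPM at the low dose (log2 change -0.26 ± 0.04, edgeR adjusted p = 6.04e-06), the only chaperone that passed there. In Soshiho-tang it had 1254 and 1253 CPM at the high dose, against 1450.1 and 1345 CPM at the low dose (log2 change -0.16 ± 0.05, edgeR adjusted p = 0.0121). The last of these falls is small and rests on 2 libraries a side: it was -0.10 with an edgeR adjusted p of 0.274 without low-dose replicate 2, and it was lost in 3 of the 4 fits that left out 1 library.

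DNAJB9 (ERdj4; ENSG00000128590, chr7:108569568-108574850, plus strand), a J-domain partner that hands unfolded chains to HSPA5 and is known to restrain ERN1, changed most, among the replicated extracts, in Soshiho-tang. It had 52.1 and 55.1 CPM at the high dose, against 20.1 and 19.2 CPM at the low dose there, a 2.73-fold rise (log2 change 1.45 ± 0.09, edgeR adjusted p = 8.52e-17). In Schisandrae it had 26.0, 23.0 and 24.7 CPM at the high dose, against 18.8, 18.997 and 18.2 CPM at the low dose (log2 change 0.39 ± 0.08, edgeR adjusted p = 4.04e-05). In Yijin-tang it had 23.3, 24.6 and 23.5 CPM at the high dose, against 20.8, 18.1 and 19.2 CPM at the low dose (log2 change 0.30 ± 0.08, edgeR adjusted p = 0.00865). All 19 low-dose libraries, at 16.6 to 22.0 CPM, lay below the vehicle libraries, at 24.3, 24.2 and 25.4 CPM, so the high-dose libraries of Schisandrae and Yijin-tang lie around the vehicle level (log2 -0.02 and -0.06 against vehicle, neither passed) and those of Soshiho-tang above it (1.11, edgeR adjusted p = 4.01e-15). The Yijin-tang call was lost in 2 of 6 fits that left out 1 library, with an edgeR adjusted p of 0.0875 without low-dose replicate 2. Zizyphi gave 20.2, 21.2 and 19.9 CPM at the high dose, against 19.6, 16.6 and 18.3 CPM at the low dose (log2 change 0.16 ± 0.08, edgeR adjusted p = 0.301). Longan gave 16.7, 19.8 and 17.9 CPM at the high dose, against 18.0, 18.7 and 19.029 CPM at the low dose (log2 change -0.04 ± 0.08, edgeR adjusted p = 0.955). Liriopis gave 21.6, 22.9 and 18.4 CPM at the high dose, against 22.0, 20.2 and 18.3 CPM at the low dose (log2 change 0.06 ± 0.08, edgeR adjusted p = 1.0). None of the last 3 passed. PNPLA8, which overlaps DNAJB9 on the opposite strand, also rose in Soshiho-tang (log2 0.51 ± 0.07, edgeR adjusted p = 4.19e-07) and in Yijin-tang (log2 0.21 ± 0.06, edgeR adjusted p = 0.0185), and THAP5, which overlaps it too, was at log2 0.06 ± 0.07 in Soshiho-tang (edgeR adjusted p = 0.636); the library kit kept strand, and whether counting used it is not given in the sources used here.

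SDF2L1, a resident protein that works with J-domain partners of HSPA5, showed small differences at the high dose of the 6 replicated extracts. It had 43.0, 50.3 and 49.1 CPM at the high dose, against 42.6, 38.3 and 38.4 CPM at the low dose of Schisandrae (log2 change 0.25 ± 0.11, edgeR adjusted p = 0.048), a rise close to the threshold that was lost in 4 of the 6 fits with 1 library left out. The largest adjusted p of those fits, 0.163, came without high-dose replicate 2. Longan gave 31.9, 34.8 and 36.9 CPM at the high dose, against 38.8, 38.3 and 40.5 CPM at the low dose (log2 change -0.18 ± 0.11, edgeR adjusted p = 0.604). Soshiho-tang gave 43.0 and 43.4 CPM at the high dose, against 42.9 and 44.0 CPM at the low dose (log2 change -0.01 ± 0.13, edgeR adjusted p = 0.981). Neither passed, though the Longan libraries do not overlap. Yijin-tang gave 44.9, 45.1 and 43.4 CPM at the high dose, against 40.4, 44.6 and 39.7 CPM at the low dose (log2 change 0.09 ± 0.11, edgeR adjusted p = 0.726). Zizyphi gave 39.0, 39.5 and 41.4 CPM at the high dose, against 44.3, 37.5 and 37.4 CPM at the low dose (log2 change 0.00 ± 0.11, edgeR adjusted p = 0.999). Liriopis gave 43.7, 43.9 and 41.8 CPM at the high dose, against 36.0, 46.5 and 34.7 CPM at the low dose (log2 change 0.14 ± 0.11, edgeR adjusted p = 1.0). The doses overlap in all 3.

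CALR (calreticulin), the soluble lectin chaperone that holds newly made glycoproteins, had 1587, 1787 and 1852 CPM at the high dose, against 1550.0, 1538 and 1536 CPM at the low dose of Schisandrae (log2 change 0.17 ± 0.06, edgeR adjusted p = 0.0147). The lowest high-dose library sits just above the low-dose ones, and the call was lost in 2 of 6 fits, with an edgeR adjusted p of 0.111 without high-dose replicate 3. In Longan it had 1323, 1363 and 1452 CPM at the high dose, against 1655, 1621 and 1673 CPM at the low dose (log2 change -0.26 ± 0.06, edgeR adjusted p = 0.0135). That fall separated all libraries but was lost in 4 of 6 fits, with a largest edgeR adjusted p of 0.0976 without high-dose replicate 1. Soshiho-tang gave 1629.9 and 1610.1 CPM at the high dose, against 1635 and 1628 CPM at the low dose (log2 change -0.01 ± 0.07, edgeR adjusted p = 0.947). Yijin-tang gave 1599.9, 1579 and 1604 CPM at the high dose, against 1696, 1638 and 1676 CPM at the low dose (log2 change -0.07 ± 0.06, edgeR adjusted p = 0.615). Neither of these passed. Zizyphi gave 1815, 1902 and 1883 CPM at the high dose, against 1887, 1771 and 1682 CPM at the low dose (log2 change 0.06 ± 0.06, edgeR adjusted p = 0.637). Liriopis gave 1596, 1631 and 1709.6 CPM at the high dose, against 1521, 1680.3 and 1562 CPM at the low dose (log2 change 0.05 ± 0.06, edgeR adjusted p = 1.0). CANX (calnexin), its membrane-bound counterpart, passed in none of the 6 high-dose comparisons, with changes from -0.14 in Soshiho-tang to 0.09 in Zizyphi.

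MANF, a resident and secreted protein that binds HSPA5, had 195, 213 and 217 CPM at the high dose, against 145, 136 and 144 CPM at the low dose of Schisandrae (log2 change 0.55 ± 0.08, edgeR adjusted p = 8.01e-08). In Longan it had 109.8, 120.0 and 123 CPM at the high dose, against 145, 144 and 158 CPM at the low dose (log2 change -0.34 ± 0.08, edgeR adjusted p = 0.0128). The libraries separated in both, in opposite directions. Without low-dose replicate 3 of Longan its value was -0.30 and the call was lost (edgeR adjusted p = 0.11). HYOU1 (GRP170), the exchange factor that reloads HSPA5 with ATP, rose by 0.30 ± 0.04 log2 in Schisandrae (edgeR adjusted p = 1.85e-08) and fell in Longan (log2 change -0.22 ± 0.04, edgeR adjusted p = 0.000794). CRELD2, a cysteine-rich resident protein that is a known stress target, rose in Schisandrae and passed in no other extract (log2 change 0.33 ± 0.10, edgeR adjusted p = 0.00543). DNAJB11 (ERdj3), another J-domain partner of HSPA5, had 187, 189 and 199 CPM at the high dose, against 223, 206 and 215 CPM at the low dose of Schisandrae (log2 change -0.17 ± 0.04, edgeR adjusted p = 0.00205). It was the one chaperone that fell there, against the direction of its own partner HSPA5, and its call was lost when genes of low counts were kept (-0.15, edgeR adjusted p = 0.0765).

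The chaperones that rose in Soshiho-tang were J-domain and Hsp70 family members other than HSPA5. HSPA13, a membrane-associated Hsp70-like ATPase, had 133 and 143 CPM at the high dose, against 99.9 and 103 CPM at the low dose (log2 change 0.44 ± 0.07, edgeR adjusted p = 1.45e-05). DNAJC3 (P58IPK), a J-domain partner also known as an inhibitor of EIF2AK3, had 161 and 165 CPM at the high dose, against 134 and 137 CPM at the low dose (log2 change 0.27 ± 0.07, edgeR adjusted p = 0.00506). Both sets of libraries separate. The DNAJC3 call was lost in 2 of 4 fits with 1 library left out, by a narrow margin (edgeR adjusted p up to 0.0536, without high-dose replicate 3), and against the vehicle its difference was -0.03 and did not pass. HSPA13 rose in Schisandrae as well, by 0.15 ± 0.06 log2 (edgeR adjusted p = 0.0483). Summed over the 12 chaperones, the level was 12920.0 ± 340.4 CPM at the high dose and 9258 ± 129 CPM at the low dose of Schisandrae (SD, n = 3 each). In Longan it was 7911 ± 141 CPM at the high dose and 9505 ± 106 CPM at the low dose (SD, n = 3 each). In Soshiho-tang it was 9372 and 9548 CPM at the high dose and 9268 and 9654 CPM at the low dose. Such sums are weighted to the genes of high CPM, HSPA5 among them, and do not speak for each of the 12.

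**Figure D2:**
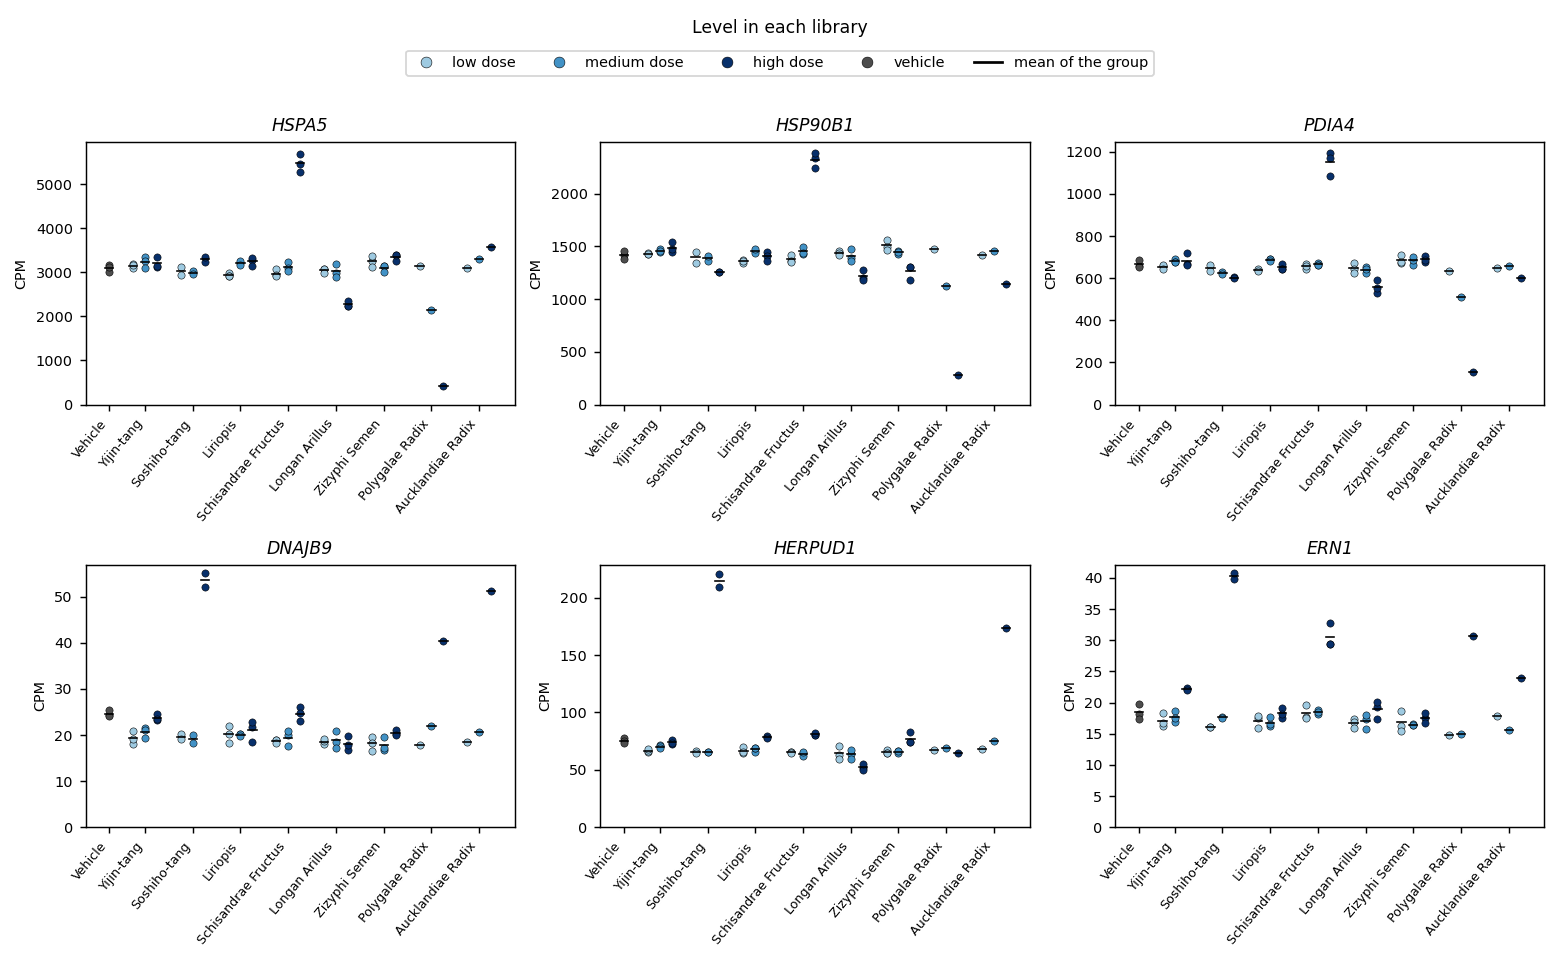
Level in CPM (y axis) of 6 genes in every library, with vehicle first and then the low, medium and high dose of each extract (x axis). Each point is 1 library, and Polygalae and Aucklandiae have 1 library a dose. HSPA5, at 5265 to 5691 CPM, stands out at the Schisandrae high dose and HERPUD1, at 209 and 220.4 CPM, at the Soshiho-tang high dose. In the replicated extracts, low and medium doses lie together. In Polygalae, HSPA5 was at 3150.1 CPM at the low, 2148 CPM at the medium and 409.6 CPM at the high dose.

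Among the disulfide enzymes the changes were almost all in Schisandrae, where 7 of 9 rose, and in Longan, where 3 of 9 fell. PDIA4 (ERp72; ENSG00000155660, chr7:149003062-149028641, minus strand), an isomerase with an extra thioredoxin-like domain, had 1083, 1195 and 1172 CPM at the high dose, against 669, 644 and 659.8 CPM at the low dose of Schisandrae, a 1.74-fold rise (log2 change 0.80 ± 0.04, edgeR adjusted p = 4.26e-21). In Longan it had 528, 552 and 593 CPM at the high dose, against 671, 645 and 625 CPM at the low dose (log2 change -0.22 ± 0.04, edgeR adjusted p = 0.00067). It went with HSPA5 in both extracts, up in one and down in the other, with no overlap of libraries. Soshiho-tang gave 607 and 599 CPM at the high dose, against 665 and 635 CPM at the low dose (log2 change -0.11 ± 0.05, edgeR adjusted p = 0.103). Yijin-tang gave 666, 661 and 718 CPM at the high dose, against 657, 663 and 644 CPM at the low dose (log2 change 0.06 ± 0.04, edgeR adjusted p = 0.485). Neither passed. Zizyphi gave 676, 705 and 687 CPM at the high dose, against 671, 711 and 678 CPM at the low dose (log2 change 0.00 ± 0.04, edgeR adjusted p = 0.999). Liriopis gave 669, 645 and 643 CPM at the high dose, against 641, 644 and 635 CPM at the low dose (log2 change 0.03 ± 0.04, edgeR adjusted p = 1.0).

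PDIA5, a less studied isomerase of the same family, had 24.4, 25.4 and 28.1 CPM at the high dose, against 15.8, 15.5 and 17.1 CPM at the low dose of Schisandrae (log2 change 0.68 ± 0.08, edgeR adjusted p = 4.08e-10). ERO1B, one of the oxidases that pass oxidizing equivalents to the isomerases, had 19.034, 15.4 and 17.5 CPM at the high dose, against 11.0, 12.3 and 10.3 CPM at the low dose (log2 change 0.62 ± 0.08, edgeR adjusted p = 4.54e-08). In both, all high-dose libraries lie above the low-dose ones. Other enzymes rose less in Schisandrae: ERO1A, the other oxidase, by 0.25 ± 0.04 log2 (edgeR adjusted p = 1.5e-06), P4HB, the founding isomerase and a subunit of prolyl hydroxylase, by 0.22 ± 0.04 log2, TXNDC5 by 0.19 ± 0.03 log2 and PDIA3 (ERp57), the partner of calreticulin and calnexin, by 0.15 ± 0.04 log2. PDIA6 (log2 change 0.07 ± 0.04, edgeR adjusted p = 0.0963) and TXNDC11 (log2 change 0.09 ± 0.04, edgeR adjusted p = 0.0929) did not pass.

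PDIA6, an isomerase known to act on ERN1, had 465, 478 and 471 CPM at the high dose, against 534, 527 and 564 CPM at the low dose of Longan (log2 change -0.20 ± 0.04, edgeR adjusted p = 0.000761). PDIA3 had 651, 661 and 678 CPM at the high dose, against 748, 739 and 781 CPM at the low dose of Longan (log2 change -0.19 ± 0.04, edgeR adjusted p = 0.00267). Both falls are small and the libraries are separate, and both calls, like that of PDIA4 in Longan, were lost when genes of low counts were kept and when the 2 doses were fitted alone. ERO1A had 162, 158 and 153 CPM at the high dose, against 144, 132 and 137 CPM at the low dose of Zizyphi (log2 change 0.19 ± 0.04, edgeR adjusted p = 0.00199), the only enzyme that rose there. TXNDC11, an isomerase that assists the EDEM enzymes, had 62.5 and 58.0 CPM at the high dose, against 54.8 and 53.7 CPM at the low dose of Soshiho-tang (log2 change 0.15 ± 0.05, edgeR adjusted p = 0.0485). That call is at the threshold: it was lost in 3 of 4 fits with 1 library left out, the value being 0.09 without high-dose replicate 2, and also with DESeq2. The counts of PDIA3, P4HB, ERO1A and TXNDC11 were fractional in over 90% of libraries, as were those of HSPA5, CALR and PDIA6, which is what expected counts show where reads match more than 1 place, so their levels carry that uncertainty.

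The degradation genes were led by HERPUD1 (ENSG00000051108, chr16:56932048-56944863, plus strand), a membrane scaffold of the ubiquitin ligase complex that retrotranslocates misfolded proteins. It had 220.4 and 209 CPM at the high dose, against 66.5 and 64.9 CPM at the low dose of Soshiho-tang, a 3.27-fold rise and the largest among the 34 genes there (log2 change 1.71 ± 0.06, edgeR adjusted p = 9.56e-27). In Schisandrae it had 80.5, 80.7 and 81.7 CPM at the high dose, against 65.8, 65.4 and 64.8 CPM at the low dose (log2 change 0.30 ± 0.04, edgeR adjusted p = 3.16e-07). In Longan it had 52.0, 50.1 and 55.5 CPM at the high dose, against 62.6, 59.4 and 70.8 CPM at the low dose (log2 change -0.29 ± 0.05, edgeR adjusted p = 0.000177). It passed in 5 of the 6 extracts, with libraries separate in each. In Zizyphi it had 74.1, 74.1 and 82.6 CPM at the high dose, against 67.2, 64.6 and 64.8 CPM at the low dose (log2 change 0.23 ± 0.05, edgeR adjusted p = 0.000818). In Yijin-tang it had 72.9, 75.8 and 73.7 CPM at the high dose, against 65.8, 66.5 and 67.9 CPM at the low dose (log2 change 0.15 ± 0.05, edgeR adjusted p = 0.0322). The Yijin-tang call was lost in 5 of 6 fits with 1 library left out, with a largest edgeR adjusted p of 0.147 without high-dose replicate 2. The Longan and Zizyphi calls were lost when only the 2 doses compared were fitted (edgeR adjusted p = 0.22 and 0.108). In Liriopis it had 78.5, 79.5 and 77.8 CPM at the high dose, against 65.0, 69.7 and 65.7 CPM at the low dose (log2 change 0.23 ± 0.05, edgeR adjusted p = 0.116), which did not pass, although DESeq2 called it (adjusted p = 0.00374), as did edgeR with a replicate block (adjusted p = 0.00859). All low-dose libraries, at 59.4 to 70.8 CPM, lay below the 3 vehicle libraries, at 77.5, 75.1 and 73.3 CPM, so the high-dose libraries of Yijin-tang, Zizyphi and Liriopis, at 72.9 to 82.6 CPM, lie around the vehicle level, those of Soshiho-tang above it and those of Longan below it. The Schisandrae libraries lie above the vehicle libraries, but the difference was 0.09 and did not pass (edgeR adjusted p = 0.0804).

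SYVN1 (HRD1), the ubiquitin ligase of that complex, rose in both of the extracts in which several sensors rose. It had 138 and 138 CPM at the high dose, against 92.4 and 89.8 CPM at the low dose of Soshiho-tang (log2 change 0.60 ± 0.06, edgeR adjusted p = 3.84e-10). In Schisandrae it had 136, 132 and 131 CPM at the high dose, against 95.1, 100.2 and 98.2 CPM at the low dose (log2 change 0.44 ± 0.05, edgeR adjusted p = 1.63e-09). Its libraries separate in both. MRPL49, which overlaps SYVN1, also rose in Schisandrae (log2 0.16 ± 0.06, edgeR adjusted p = 0.03). DERL1, a rhomboid-like channel component, had 145 and 152 CPM at the high dose, against 126 and 121 CPM at the low dose of Soshiho-tang (log2 change 0.26 ± 0.07, edgeR adjusted p = 0.00252). That call was lost in 2 of 4 fits with 1 library left out, where the edgeR adjusted p reached 0.0612 without high-dose replicate 3; in Schisandrae it rose by 0.20 ± 0.05 log2 (edgeR adjusted p = 0.00153). EDEM1, which trims mannose from glycoproteins bound for degradation, had 103, 101 and 95.7 CPM at the high dose, against 88.3, 84.5 and 85.3 CPM at the low dose of Zizyphi (log2 change 0.21 ± 0.06, edgeR adjusted p = 0.0282). It rose by 0.21 ± 0.07 log2 in Soshiho-tang (edgeR adjusted p = 0.0356) and by 0.18 ± 0.06 log2 in Schisandrae (edgeR adjusted p = 0.0116). The Zizyphi call was lost in 4 of 6 fits, with an edgeR adjusted p up to 0.115 without high-dose replicate 2.

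The 3 derlins did not move together in Schisandrae. DERL3 (ENSG00000099958, chr22:23834503-23839128, minus strand) had 3.11, 3.49 and 2.78 CPM at the high dose, against 1.13, 1.51 and 1.23 CPM at the low dose, a 2.41-fold rise (log2 change 1.27 ± 0.19, edgeR adjusted p = 2.77e-07) and the largest among the 34 genes in that extract. It is a gene of few reads, with 17 to 115 counts in a library. DERL2 had 40.5, 33.6 and 35.2 CPM at the high dose, against 46.8, 45.2 and 43.6 CPM at the low dose (log2 change -0.32 ± 0.07, edgeR adjusted p = 0.000106), a fall with separate libraries, while DERL1 rose. SMARCB1, which overlaps DERL3 on the opposite strand, was at log2 -0.08 ± 0.06 (edgeR adjusted p = 0.255). SEL1L, the adaptor of SYVN1, OS9, a lectin that reads trimmed glycans, and SEC61B, a subunit of the translocation channel, passed in none of the 6 high-dose comparisons. Their changes spanned -0.18 to 0.18 for SEL1L, -0.11 to 0.08 for OS9 and -0.13 to 0.01 for SEC61B.

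The genes of the sensor group, XBP1 included, rose together in Soshiho-tang, with a median change of 0.79 over the 4. ERN1 (ENSG00000178607, chr17:64039142-64130819, minus strand), the kinase and RNase that splices XBP1, had 39.8 and 40.9 CPM at the high dose, against 16.1 and 16.1 CPM at the low dose, a 2.50-fold rise (log2 change 1.32 ± 0.08, edgeR adjusted p = 1.56e-17). EIF2AK3 (PERK; ENSG00000172071, chr2:88556741-88627576, minus strand), the kinase that phosphorylates the translation factor eIF2 alpha, had 35.7 and 37.1 CPM at the high dose, against 19.9 and 21.5 CPM at the low dose (log2 change 0.81 ± 0.09, edgeR adjusted p = 5.91e-09). XBP1 (ENSG00000100219, chr22:28794555-28800597, minus strand), the factor made by that splicing, had 218 and 205 CPM at the high dose, against 120.2 and 128 CPM at the low dose (log2 change 0.77 ± 0.06, edgeR adjusted p = 8.77e-13). High-dose and low-dose libraries are far apart in all 3. ATF6, the membrane-bound transcription factor, rose less (log2 change 0.27 ± 0.08, edgeR adjusted p = 0.00979). Counts per gene do not show whether XBP1 messenger RNA was spliced, ATF6 cut or a kinase active.

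In Schisandrae 3 of the 4 rose and EIF2AK3 did not pass. ERN1 had 32.7, 29.5 and 29.5 CPM at the high dose, against 17.6, 19.7 and 17.6 CPM at the low dose (log2 change 0.73 ± 0.06, edgeR adjusted p = 6.56e-13). XBP1 had 135, 137 and 142 CPM at the high dose, against 116, 115 and 117 CPM at the low dose (log2 change 0.24 ± 0.05, edgeR adjusted p = 0.000172). ATF6 had 94.965, 84.2 and 85.1 CPM at the high dose, against 79.0, 79.5 and 76.5 CPM at the low dose (log2 change 0.16 ± 0.06, edgeR adjusted p = 0.0334). Its lowest high-dose library is barely above the low-dose ones, and the call was lost in 4 of 6 fits with 1 library left out (edgeR adjusted p up to 0.229, without high-dose replicate 1). EIF2AK3 had 23.0, 20.4 and 20.6 CPM at the high dose, against 21.3, 20.8 and 23.2 CPM at the low dose (log2 change -0.03 ± 0.08, edgeR adjusted p = 0.761), with overlapping libraries.

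In Yijin-tang ERN1 was the one sensor that passed, with 22.1, 22.3 and 22.1 CPM at the high dose, against 18.4, 16.2 and 16.8 CPM at the low dose (log2 change 0.38 ± 0.07, edgeR adjusted p = 8.5e-05), and it held in all 6 fits with 1 library left out. XBP1 passed in none of the other 4 extracts. It had 125, 127 and 132 CPM at the high dose, against 114, 125 and 119 CPM at the low dose of Yijin-tang (log2 change 0.10 ± 0.05, edgeR adjusted p = 0.314). It had 132, 128 and 127 CPM at the high dose, against 123, 114 and 109 CPM at the low dose of Zizyphi (log2 change 0.15 ± 0.05, edgeR adjusted p = 0.0895). The Zizyphi libraries do not overlap, and DESeq2 called the difference (0.16, adjusted p = 0.0433), as did edgeR without low-dose replicate 1 (adjusted p = 0.0415). It had 106, 110.1 and 115 CPM at the high dose, against 115, 112 and 120.4 CPM at the low dose of Longan (log2 change -0.07 ± 0.05, edgeR adjusted p = 0.741). It had 127, 118 and 131 CPM at the high dose, against 117, 118 and 118 CPM at the low dose of Liriopis (log2 change 0.09 ± 0.05, edgeR adjusted p = 1.0). No sensor passed in Longan, Zizyphi or Liriopis in edgeR, where the unadjusted p was under 0.05 for 1, 1 and 0 of the 4.

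At the medium doses none of the 34 genes passed in any of the 6 replicated extracts, by edgeR or by DESeq2. Few genes of any kind did: 0.0224% of all genes in Yijin-tang, 0.0112% in Soshiho-tang, 0.0392% in Schisandrae, and 0.0% in each of Liriopis, Longan and Zizyphi. At an unadjusted p under 0.05 there were 6 of 34 in Liriopis, 2 in Schisandrae, 1 in Zizyphi and 0 in the other 3. HSPA5 and HERPUD1, which led the high doses, are given as examples. HSPA5 had 3237, 3089 and 3029 CPM at 62 µg/mL of Schisandrae, against 3069.6, 2932 and 2910.4 CPM at 12.4 µg/mL (log2 change 0.07 ± 0.04, edgeR adjusted p = 1.0). HERPUD1 had 65.5 and 65.7 CPM at 100 µg/mL of Soshiho-tang, against 66.5 and 64.9 CPM at 20 µg/mL (log2 change 0.00 ± 0.06, edgeR adjusted p = 1.0). The medium-dose libraries lie among or beside the low-dose ones. ERN1, the sensor with the strongest rise, had 17.7 and 17.6 CPM at 100 µg/mL, against 16.1 and 16.1 CPM at 20 µg/mL of Soshiho-tang (log2 change 0.13 ± 0.08, edgeR adjusted p = 1.0).

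Soshiho-tang and Schisandrae were the extracts with the most calls, and the genes with the largest changes differed between them. The test of the difference between their changes (high minus low in Soshiho-tang, minus the same in Schisandrae) passed for 21 of the 34 genes, 8 higher in Soshiho-tang and 13 higher in Schisandrae, beside 24.1% of all genes in either direction. The high doses were 500 and 310 µg/mL, so they differ in dose as well as in extract, and the extracts belong to different library sets. Higher in Soshiho-tang were HERPUD1, by 1.40 (1.26 to 1.55) log2 (95% interval; edgeR adjusted p = 1.63e-19), DNAJB9, by 1.06 (0.82 to 1.3), EIF2AK3, by 0.84 (0.59 to 1.09), ERN1, by 0.59 (0.39 to 0.80), DERL2, by 0.45 (0.24 to 0.66), and XBP1, by 0.52 (0.36 to 0.69). HSPA13, by 0.29 (0.10 to 0.49), and DNAJC3, by 0.29 (0.10 to 0.47), complete the 8. These are sensors, J-domain partners, degradation genes and the Hsp70-like HSPA13.

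Higher in Schisandrae were chaperones and disulfide enzymes. The Soshiho-tang minus Schisandrae difference was -0.91 (-1.03 to -0.79) for HSP90B1 (edgeR adjusted p = 1.61e-15), -0.91 (-1.03 to -0.79) for PDIA4, -0.76 (-0.88 to -0.64) for HSPA5, -0.69 (-0.94 to -0.44) for PDIA5 and -0.56 (-0.81 to -0.32) for MANF. DERL3, at -1.15 (-1.76 to -0.54), was the degradation gene among them. The remaining 7, HYOU1, PDIA3, PDIA6, P4HB, TXNDC5, ERO1A and ERO1B, lay between -0.45 and -0.19. For the other 13 genes no difference was shown, and the intervals leave room for one. SYVN1 was at 0.16 (0.00 to 0.32), CALR at -0.18 (-0.37 to 0.00), SDF2L1 at -0.26 (-0.60 to 0.08) and ATF6 at 0.11 (-0.09 to 0.31).

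**Figure D3:**
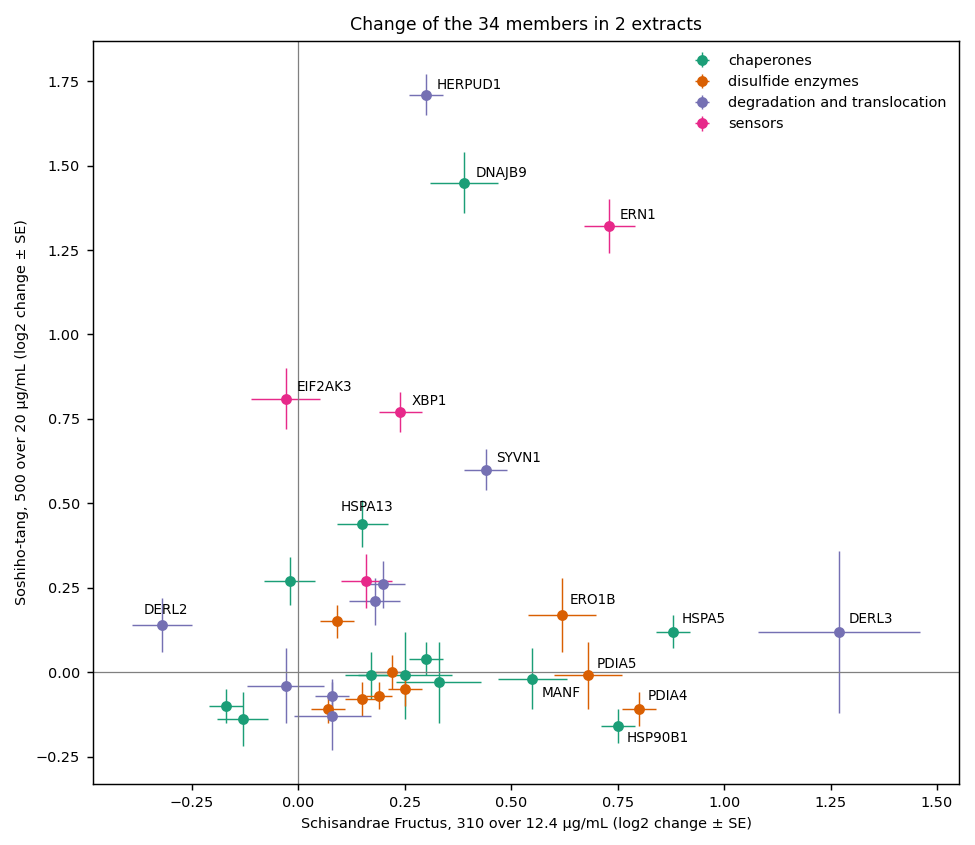
Log2 change at the high dose of Schisandrae (x axis) against that of Soshiho-tang (y axis) for the 34 genes, coloured by role. Bars are standard errors, and the horizontal and vertical lines mark no change. HERPUD1 (1.71 in Soshiho-tang and 0.30 in Schisandrae) and DNAJB9 (1.45 and 0.39) rose more in Soshiho-tang, and HSPA5, HSP90B1 and PDIA4 more in Schisandrae.

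Of the 9 genes that fell in Longan, 8 rose in Schisandrae, PDIA6 being the exception at 0.07 log2 there. The high doses were 310 µg/mL of Schisandrae and 500 µg/mL of Longan. The change differed for 24 of the 34, with 23 higher in Schisandrae and 1, DERL2, higher in Longan, beside 27.4% of all genes. HSPA5 differed by 1.3 (1.19 to 1.41) log2 (Schisandrae minus Longan; edgeR adjusted p = 6.94e-22), PDIA4 by 1.02 (0.91 to 1.13), HSP90B1 by 0.99 (0.88 to 1.10) and MANF by 0.89 (0.67 to 1.11). DERL3, a gene of few reads, differed by 1.17 (0.60 to 1.74), though its change in Longan did not pass. DERL2 differed by -0.25 (-0.44 to -0.06). No difference was shown for CANX, at 0.01 (-0.17 to 0.19), DNAJB11, at -0.03 (-0.16 to 0.10), or EIF2AK3, at -0.04 (-0.26 to 0.19), whose intervals include 0.

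**Figure D4:**
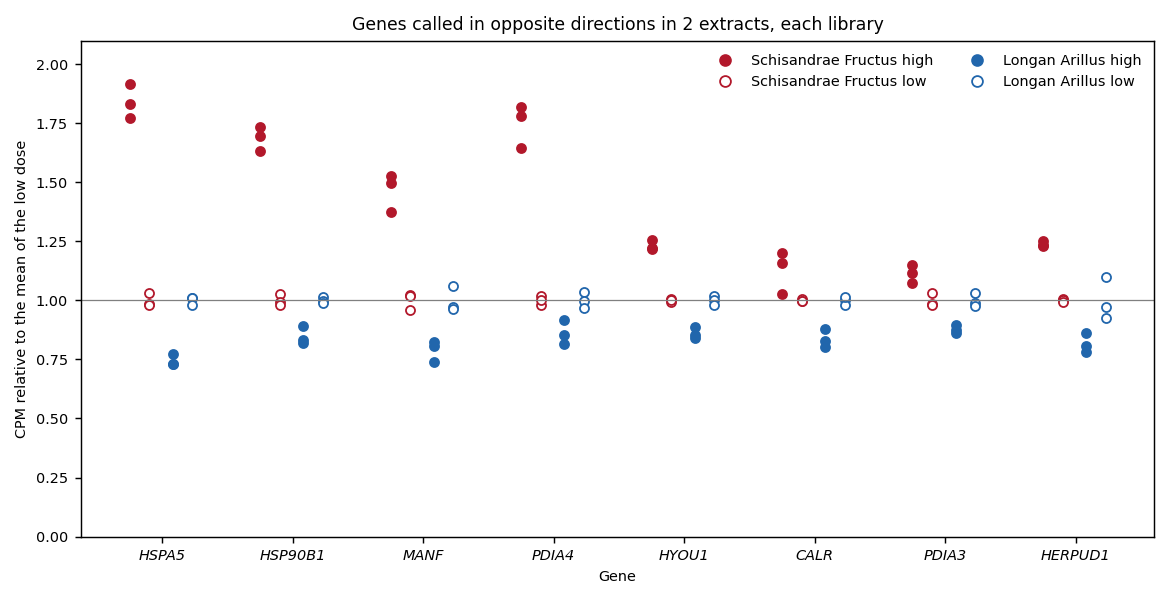
Level of 8 folding genes in each high-dose and low-dose library of Schisandrae and of Longan (x axis, high dose left of low dose), relative to the mean of the low dose of the same extract (y axis); each point is 1 library. The 8 genes are those that passed upward in Schisandrae and downward in Longan, so the direction of their points was set by that choice.

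All 15 pairs of the 6 replicated extracts were compared in this way, with p-values adjusted over all genes within a pair. Schisandrae stood apart from Zizyphi in 16 of 34 (beside 33.2% of all genes), from Yijin-tang in 18 of 34 (beside 23.9% of all genes) and from Liriopis in 17 of 34 (beside 31.1% of all genes). Soshiho-tang stood apart from Longan in 13 of 34 (beside 12.1% of all genes), from Yijin-tang in 11 of 34 (beside 9.4% of all genes), from Liriopis in 8 of 34 (beside 10.3% of all genes) and from Zizyphi in 8 of 34 (beside 13.2% of all genes). Longan, the extract with the falls, differed from Zizyphi in 7 of 34 (beside 3.97% of all genes), from Yijin-tang in 5 of 34 (beside 1.55% of all genes) and from Liriopis in 5 of 34 (beside 0.101% of all genes). In these 3 pairs all the genes that differed were lower in Longan. Zizyphi differed from Yijin-tang in 3 of 34 (beside 7.79% of all genes) and from Liriopis in 1 of 34 (beside 1.3% of all genes). Between Yijin-tang and Liriopis 0 of 34 differed in edgeR (beside 2.06% of all genes), with 6 at an unadjusted p under 0.05. Without high-dose replicate 3 of Soshiho-tang, 7 and not 11 genes differed between Yijin-tang and Soshiho-tang. The Yijin-tang and Zizyphi count was 1 and not 3 without low-dose replicate 3 of Zizyphi, and the Liriopis and Longan count 2 and not 5 without low-dose replicate 1 of Longan.

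Both decoctions were given at 500 µg/mL and share a library set, so they can be set side by side at 1 dose. The Yijin-tang minus Soshiho-tang difference was -1.56 (-1.70 to -1.42) for HERPUD1 (edgeR adjusted p = 6.36e-21), -1.15 (-1.39 to -0.91) for DNAJB9, -0.95 (-1.16 to -0.74) for ERN1, -0.85 (-1.10 to -0.60) for EIF2AK3, -0.67 (-0.84 to -0.50) for XBP1 and -0.56 (-0.73 to -0.40) for SYVN1. Every one of these was higher in Soshiho-tang, and HSP90B1, at 0.21 (0.09 to 0.33), was the gene that was higher in Yijin-tang. HSPA5, at -0.10 (-0.22 to 0.03), was not shown to differ.

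Against the vehicle, whose libraries form a set of their own so that set and treatment cannot be told apart, the leading genes of Schisandrae and Soshiho-tang passed as well. Schisandrae at the high dose had 19 of 34 higher and 5 lower (50.1% of all genes), with HSPA5 at 0.81 (edgeR adjusted p = 6.43e-21), PDIA4 at 0.78, HSP90B1 at 0.70 and DERL3 at 1.60. Soshiho-tang had 9 of 34 higher and 6 lower (30.3% of all genes), with HERPUD1 at 1.5 (edgeR adjusted p = 6.24e-27), ERN1 at 1.12, DNAJB9 at 1.11, XBP1 at 0.91 and EIF2AK3 at 0.57. Longan had 0 of 34 higher and 19 lower (15.9% of all genes), with HERPUD1 at -0.53 and HSPA5 at -0.45. The counts at the high dose of the other extracts were 2 of 34 higher and 4 lower (19.7% of all genes) in Yijin-tang, 4 of 34 higher and 3 lower (13.3% of all genes) in Zizyphi and 0 of 34 higher and 2 lower (4.09% of all genes) in Liriopis.

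Medium doses, at which none of the 34 passed against the low dose, had calls against the vehicle. There were 3 of 34 higher and 5 lower (14.2% of all genes) in Yijin-tang, 0 of 34 higher and 3 lower (4.2% of all genes) in Soshiho-tang, 0 of 34 higher and 3 lower (5.38% of all genes) in Schisandrae, 1 of 34 higher and 10 lower (12.9% of all genes) in Liriopis, 1 of 34 higher and 9 lower (25.2% of all genes) in Longan and 0 of 34 higher and 7 lower (14.4% of all genes) in Zizyphi. Low doses differed from the vehicle too: DNAJB9 and HERPUD1 were lower in every low-dose library than in any vehicle one, HERPUD1 at 59.4 to 70.8 CPM at the low doses, against 77.5, 75.1 and 73.3 CPM. How many of all genes separate from the vehicle in this way was not counted. The part of the library set in these differences was not tested.

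The 2 extracts with 1 library a dose gave differing patterns, and their values have no replicate check and no p-value. In Polygalae at the high dose, 19 of 34 genes were lower and 3 higher by more than 1.5-fold, beside 26.0% lower and 24.2% higher of all genes, and the median difference of the 34 was -0.81 log2, against 0.019 for all genes. The lower genes were 9 of 12 chaperones, 6 of 9 disulfide enzymes, 3 of 9 degradation genes and 1 sensor. HSPA5 had 3150.1 CPM at the low dose, 2148 CPM at the medium dose and 409.6 CPM at the high dose. It was 7.69-fold lower at the high than at the low dose, with 498 CPM before scaling by the trimmed mean (exact 95% interval 489 to 507, counting error only) at the high dose and 3088 (3065 to 3112) at the low dose. HSP90B1 had 1479 CPM at the low dose, 1119.5 CPM at the medium dose and 276 CPM at the high dose. CALR had 1758 CPM at the low dose, 1416 CPM at the medium dose and 360.0 CPM at the high dose. In all 3 the level was lower at each higher dose, with most of the difference at the high dose.

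Log2 differences of the high from the low dose were -2.36 for HYOU1, -2.13 for PDIA3, -2.05 for PDIA4 and -1.93 for OS9, the lowest of the degradation genes. The genes that were higher were a J-domain partner and 2 sensors. DNAJB9 had 17.8 CPM at the low dose, 21.9 CPM at the medium dose and 40.3 CPM at the high dose. ERN1 had 14.7 CPM at the low dose, 15.0 CPM at the medium dose and 30.7 CPM at the high dose. EIF2AK3 had 18.3 CPM at the low dose, 21.6 CPM at the medium dose and 35.1 CPM at the high dose. These run against the chaperones in the same library. XBP1 differed by 0.55, under the fold used, and HERPUD1 by -0.06. At the medium dose 0 of 34 were past 1.5-fold, beside 5.41% of all genes higher and 5.34% lower. This high-dose library is the one with 20.3% mitochondrially encoded counts, and the level of VIM was 5451 CPM at the low, 3494 CPM at the medium and 635 CPM at the high dose; the part of that in the chaperone values was not tested. Summed over the 34 genes, Polygalae held 14840.0 CPM at the low dose, 12000.0 CPM at the medium dose and 4581 CPM at the high dose. That sum, too, is weighted to the genes of high CPM.

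In Aucklandiae at the high dose, 7 genes were higher and 0 lower by more than 1.5-fold, beside 14.0% higher and 19.5% lower of all genes, with a median of 0.22 over the 34. DNAJB9 had 18.4 CPM at the low dose, 20.7 CPM at the medium dose and 51.1 CPM at the high dose. HERPUD1 had 68.4 CPM at the low dose, 75.0 CPM at the medium dose and 174 CPM at the high dose. SDF2L1 had 41.7 CPM at the low dose, 63.4 CPM at the medium dose and 97.5 CPM at the high dose. These 3 were past 2-fold, beside 4.9% of all genes. DERL2 (0.91), MANF (0.77), ERO1A (0.72) and DNAJC3 (0.70) complete the 7. No sensor was past the fold, ERN1 being at 0.42, and HSPA5 was at 0.21. At the medium dose 1 gene, SDF2L1, was past 1.5-fold and none past 2-fold, beside 5.25% higher, 7.29% lower and 1.83% higher past 2-fold of all genes.

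**Figure D5:**
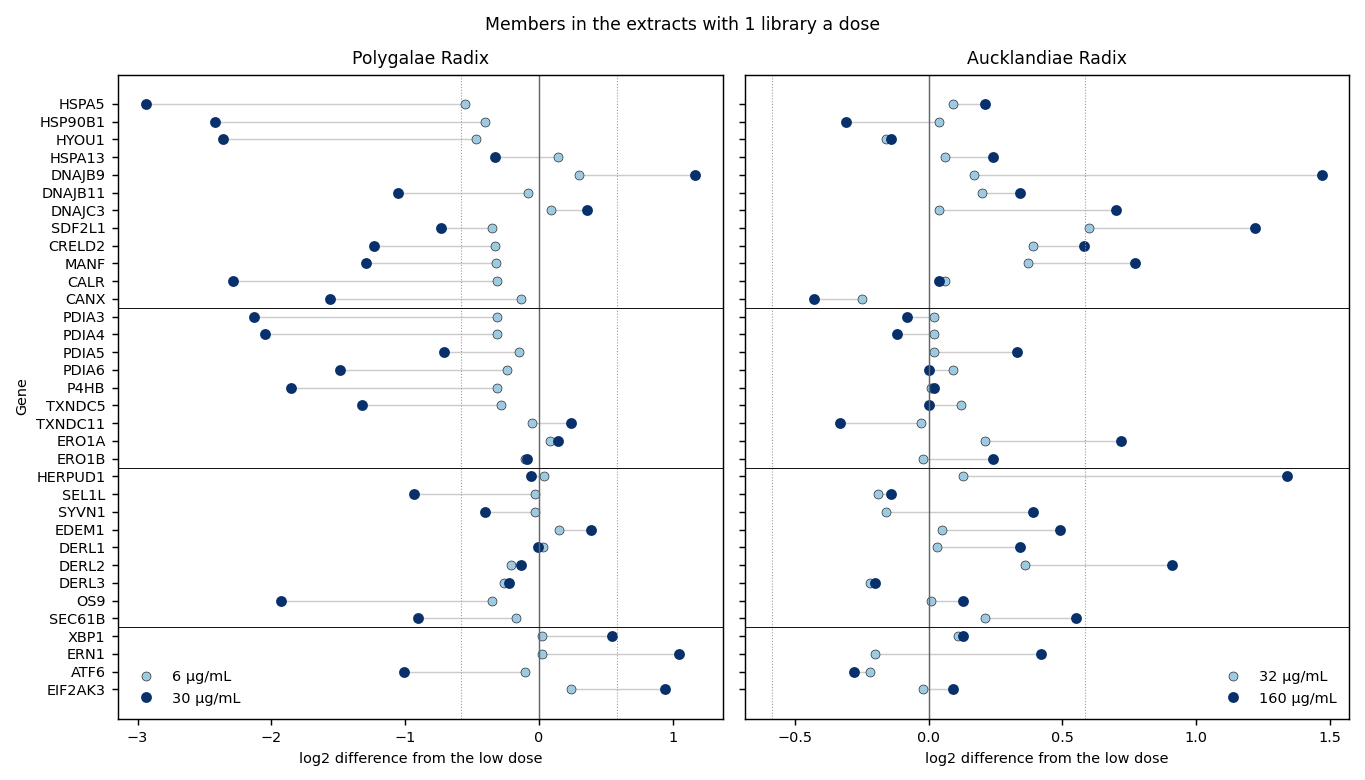
Log2 difference from the low dose (x axis) for the 34 genes (y axis, grouped by role) at the medium and high dose of Polygalae and Aucklandiae, each from 1 library a dose; dotted lines mark 1.5-fold. In Polygalae, HSPA5 is at -2.94 and DNAJB9 at 1.17 at the high dose, and in Aucklandiae DNAJB9, HERPUD1 and SDF2L1 lie farthest to the right.

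Other genes of the same pathway, 83 in 5 lists, were counted beside the 34. The list named after the EIF2AK3 branch holds 8 genes of the ATF4 response, which raises amino acid supply and, if prolonged, favours cell death. Whether EIF2AK3 acted on these genes was not tested. EIF2AK3 itself rose in Soshiho-tang and did not pass in Schisandrae. In Soshiho-tang 8 of 8 rose, with a median of 1.95, beside 9.91% higher of all genes. TRIB3, a pseudokinase, rose by 2.57 ± 0.09 log2 (edgeR adjusted p = 2.96e-25), DDIT3 (CHOP) by 1.71 ± 0.14 log2, ASNS (asparagine synthetase) by 1.48 ± 0.07 log2 and ATF4 itself by 1.45 ± 0.07 log2. In Schisandrae 8 of 8 rose too, with a median of 0.87, beside 22.3% higher of all genes. There TRIB3 rose by 1.40 ± 0.07 log2, ASNS by 1.11 ± 0.06 log2 and ATF4 by 0.43 ± 0.06 log2. In Longan 2 fell, CHAC1 (-0.45 ± 0.11 log2, edgeR adjusted p = 0.0265) and ASNS (-0.26 ± 0.06 log2, edgeR adjusted p = 0.0226), beside 0.594% lower of all genes. In Zizyphi 2 rose, TRIB3 (0.30 ± 0.08 log2) and SESN2 (0.22 ± 0.06 log2), in Yijin-tang 1, ATF3 (0.49 ± 0.14 log2), and in Liriopis 0 by edgeR, with 0 at an unadjusted p under 0.05. Of all genes, 2.02% rose in Zizyphi, 3.61% in Yijin-tang and 0.0% in Liriopis. In the single high-dose libraries, 8 of 8 were past 1.5-fold higher in Aucklandiae, with a median of 1.38, beside 14.0% higher of all genes. In Polygalae 3 were higher and 3 lower, beside 24.2% higher and 26.0% lower of all genes.

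The other 4 lists moved less. In Schisandrae, where 22.3% of all genes rose and 23.6% fell, the folding, degradation and translocation lists were near those shares. Of 28 further folding genes, 8 rose and 6 fell in Schisandrae, among them KDELR3, the receptor that returns resident proteins (0.82 ± 0.05 log2), MOGS, the glucosidase that starts glycan trimming (0.70 ± 0.05 log2), and TMX1, a membrane-bound isomerase (-0.45 ± 0.06 log2). In Soshiho-tang 0 rose and 2 fell of the 28. Of 19 further degradation genes, 5 rose and 3 fell in Schisandrae, and 2 rose in Soshiho-tang. SELENOS, a selenoprotein that recruits the p97 extraction ATPase, rose in both, by 0.67 ± 0.08 log2 in Schisandrae and 0.52 ± 0.09 log2 in Soshiho-tang. Of 16 translocation genes, 4 rose and 3 fell in Schisandrae, among them SRPRA, a subunit of the signal recognition particle receptor (0.65 ± 0.04 log2), and 3 rose and 1 fell in each of Soshiho-tang and Zizyphi. Of 12 regulators, 6 rose and 4 fell in Schisandrae, and 2 rose and 1 fell in Soshiho-tang. Over all 83, the counts were 31 higher and 16 lower in Schisandrae, 15 and 4 in Soshiho-tang, 0 and 3 in Longan, 8 and 1 in Zizyphi, 3 and 0 in Yijin-tang, and 0 and 0 in Liriopis, to be read beside the shares of all genes given with the high-dose counts of the 34.

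Genes with either stress element in the promoter shown above, 11 in all, were set beside the 20 that have a promoter in the table and neither element. In Schisandrae 9 of 11 rose, with a median of 0.30, against 12 of 20 that rose and 2 that fell, with a median of 0.17, beside 22.3% higher and 23.6% lower of all genes. In Longan 6 of 11 fell, with a median of -0.20, against 2 of 20, with a median of -0.07, beside 0.594% lower of all genes. In Soshiho-tang the order is the other way, with 2 of 11 that rose and 1 that fell and a median of -0.01, against 9 of 20 that rose and a median of 0.07, beside 9.91% higher and 8.67% lower of all genes. In Zizyphi 1 of 11 rose and 1 fell, with a median of 0.06, against 2 of 20 that rose, with a median of 0.05. In Yijin-tang 1 of 11 rose, with a median of 0.05, against 2 of 20, with a median of 0.03, and in Liriopis none passed in either set in edgeR, with medians of 0.07 and 0.04. In the Polygalae library 8 of 11 were past 1.5-fold lower and 0 higher, with a median of -1.49, against 10 of 20 lower and 3 higher, with a median of -0.55, beside 26.0% lower and 24.2% higher of all genes. In the Aucklandiae library 2 of 11 were higher, against 5 of 20, beside 14.0% higher of all genes. These are counts of a small set, with no test.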

How the data were processed

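RNA of SW1783 cells was sequenced in 60 libraries of 25 groups, 16 of 3 libraries, 3 of 2 and 6 of 1. The authors deposited 1 table of RSEM expected counts per Ensembl gene, in which 10.86% of values are not whole, and here they were rounded to whole counts. FastQC 0.11.9, Trim Galore 0.6.5, STAR 2.7.3a, RSEM 1.3.3 and hg38/GRCh38 are named per the submitters' processing notes. Which annotation release and strand setting were used is not given in the sources used here. Gene positions are those of GENCODE 29.

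Libraries were scaled with edgeR's TMM factors, genes filtered with filterByExpr and the counts tested with edgeR 4.0.16 (R 4.3.3, limma 3.58.1) by the quasi-likelihood test over 54 libraries of 19 groups, without a block. P-values were adjusted over 17851 genes by Benjamini-Hochberg with a threshold of 0.05. Standard errors are the log2 change divided by the square root of F. Groups of 1 library were compared in log2 CPM with a prior count of 2, past 1.5-fold, with no test. The script was checked on simulated counts with known changes. Alternatives were DESeq2 1.42.0 and its size factors, no filter on low counts, only the 2 groups compared, each library left out, a replicate block, the vehicle as reference, 2-fold and a prior count of 0.5. Motifs were searched in RefSeq promoters of GRCh38.p14. Intervals on read shares cover counting error only.

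The members and lists were chosen with earlier results of these data known. HSPA5, DNAJB9, SDF2L1, CALR, PDIA4, HERPUD1 and XBP1 are given by library at every high dose. Per high-dose comparison and role, up to 3 genes each way with the largest change among those that passed were added. Genes named outside this rule were chosen after their values were seen.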

Additional observations from a re-analysis of the deposited data

Results flagged for a closer look

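These genes passed in opposite directions in 2 extracts at the high dose, and the test of the difference between the 2 changes passed as well. Each value is the difference between 2 log2 changes, high minus low dose, the first extract named minus the second, and each change was measured inside its own library set.

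Schisandrae against Longan held most of them. Schisandrae minus Longan was 1.3 for HSPA5, 1.02 for PDIA4, 0.99 for HSP90B1 and 0.89 for MANF. It was 0.60 for HERPUD1, 0.51 for HYOU1, 0.43 for CALR and 0.34 for PDIA3. The 8 genes rose in Schisandrae and fell in Longan.

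HERPUD1, the degradation scaffold, fell in Longan and rose in 4 other extracts. Soshiho-tang minus Longan was 2.00 for HERPUD1, Yijin-tang minus Longan was 0.44 and Longan minus Zizyphi was -0.52. HSP90B1 rose in Schisandrae and fell in Soshiho-tang and Zizyphi. Its difference was -0.91 for Soshiho-tang minus Schisandrae and 1.01 for Schisandrae minus Zizyphi. These values have calls in common with the comparisons of each extract above and are no separate evidence.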

How the results depend on the processing

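The counts of called genes among the 34 changed most with the reference. Against the vehicle, in place of the low dose, the high-dose count was 6 in Yijin-tang, 2 in Liriopis, 19 in Longan and 7 in Zizyphi, and the medium-dose count was 8 in Yijin-tang, 3 in Soshiho-tang, 11 in Liriopis, 3 in Schisandrae, 10 in Longan and 7 in Zizyphi. The vehicle libraries form a set of their own, and the cause was not tested. Differences that changed sign against the vehicle were DNAJB9 in Yijin-tang (-0.06 at the high and -0.26 at the medium dose), Schisandrae (-0.02 and -0.35), Longan (-0.39 at the medium dose) and Zizyphi (-0.28 at the high dose); HERPUD1 in Yijin-tang (-0.03 at the high dose), Liriopis (-0.16 at the medium dose) and Zizyphi (-0.20 at the medium dose); DNAJC3 in Soshiho-tang (-0.03 at the high dose); and EDEM1 in Zizyphi (-0.09 at the high dose).

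With no filter on low counts, which tested 38585 genes, 5 genes passed in Longan and 2 in Zizyphi at the high dose. With only the 2 groups in the fit, and so fewer libraries to estimate the spread, 1 passed in Longan and 0 in Zizyphi. In Liriopis, DESeq2's Wald test called 1 gene, HERPUD1, at the high dose (0.24, adjusted p = 0.00374). With a fold of 2, the Aucklandiae counts were 3 at the high and 0 at the medium dose. DESeq2 size factors moved 0 of 31 counts by over 1.5 times.

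With 1 library left out in turn, the high-dose count ranged over 1 to 3 in Yijin-tang, 8 to 11 in Soshiho-tang, 22 to 26 in Schisandrae, 7 to 9 in Longan and 3 to 5 in Zizyphi. The count of differing genes ranged over 7 to 11 for Yijin-tang and Soshiho-tang, 1 to 4 for Yijin-tang and Zizyphi and 2 to 5 for Liriopis and Longan. Of the named values under these fits, 63 lost a call, 4 gained one and 1803 did neither.

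The replicate numbers were not taken to pair the libraries, since not every same-numbered pair correlated above 0.1. Deviations of same-numbered libraries correlated at -0.26 to 0.29 (median 0.01), 10 of 123 pairs were over 0.1, and 27 of 51 libraries correlated best with their own number, a hint of pairing in the data that the labels do not give. With the replicate block, 1 gene passed in Liriopis at the high dose, HERPUD1 (0.24, edgeR adjusted p = 0.00859), and HERPUD1 gained a call in the difference Yijin-tang minus Schisandrae (-0.16). PDIA4 lost its call in the difference Liriopis minus Longan (0.25). The block changed none of the other 217 named values in direction or call. Depth limits DERL3, which has the fewest reads of the 34.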

Other observations

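Other genes of the folding pathway moved in ways the 34 do not show. In Schisandrae, SSR3, a subunit of the translocon-associated protein complex, rose by 0.50 log2, ERLEC1, a lectin of the degradation pathway, rose by 0.54, and SEC11C, a subunit of the signal peptidase, fell by 0.41 (edgeR, each passed over all genes). In the Polygalae high-dose library, 22 of 28 further folding genes and 8 of 16 translocation genes were past 1.5-fold lower, beside 26.0% of all genes, while in the Aucklandiae high-dose library 5 of the 16 translocation genes were past it higher, beside 14.0% of all genes, and 0 lower. Those 2 extracts have 1 library a dose and no test.

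Across the 19 low-dose libraries of the 6 replicated and 2 single-library extracts, the highest level was 1.08 times the lowest for P4HB, the smallest spread of the 34, and 2.38 times for DERL3, the widest.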
